A study of Mus musculus with 8 samples.

Results

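The MYC and MAX network is a family of DNA-binding proteins that share the partner MAX. Its transcripts were followed in 32Dcl3, a line of mouse myeloid progenitors. Interleukin-3 (IL-3) keeps these cells growing, and granulocyte colony-stimulating factor (G-CSF) lets them mature into neutrophil-like cells. The members were 10 genes: Myc, Mycn, Mycl, Max, Mxd1, Mxd3, Mxd4, Mxi1, Mnt and Mlx. Every probe set that the platform annotation gives to 1 of these symbols alone was used, 24 probe sets of 45037, for 10 genes of 18193. One culture had been transduced with pMYs-FLAG-ASXL1-MT-IG, a retroviral vector that carries FLAG-tagged mutant ASXL1 (ASXL1-MT), and the other with the same vector without the insert, pMYs-IG (mock). ASXL1 is a chromatin protein whose gene is often mutated in myeloid leukaemias. Either culture gave 1 Affymetrix array in IL-3 and 1 each at 2, 6 and 24 h of G-CSF, which makes 8 arrays. Left unstated in the labels are whether IL-3 was removed on switching to G-CSF, whether each time had a culture of its own, and from which species the cDNA came.

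MYC proteins bind the sequence CACGTG, called an E-box, as dimers with MAX and activate genes for growth, such as those of ribosome assembly and polyamine synthesis. MXD proteins (Mxd1, Mxd3, Mxd4 and Mxi1) and MNT compete for MAX, bind the same sequence and repress through SIN3 corepressor complexes. MLX is a second shared partner, which pairs with some MXD proteins, with MNT and with the glucose-responsive MONDO factors. In the myeloid lineage MYC is known for proliferating progenitors and MXD1 for cells that leave the cycle and mature.

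Values are on a log2 scale and are centred: each is the expression of a probe set minus its median over the 8 arrays, so values of different genes are not compared as levels. Where a gene has several probe sets, the one with the highest estimated brightness, rounded to a whole log2 unit, stands for it. Ties went to the more specific type of probe set and then to the first name. For Mxd3, Mxd4, Mxi1 and Mlx another probe set was therefore slightly brighter than the one that stands for the gene. A gene was tested if that probe set was bright enough, which 13310 genes were. Of the members 9 were tested. Mycl was not, since its 3 probe sets lay at estimated levels of 3.34 to 4.46, against a median of 5.88 over the table. Changes are given ± the standard error of a limma fit over all 8 arrays, with 2 arrays on each side of a time comparison and 4 on each side of the vector comparison. A gene passed at an adjusted p under 0.05 over all genes tested. No condition was replicated, so at each time the 2 cultures take the place of replicates. For the vector comparison the 4 times of each vector do so. The p-values measure only the spread between these arrays, which may be technical, and the number of arrays limits the precision.

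Along the first and second principal components, which held 27.3% and 15.3% of the variance, the arrays at 6 h and at 24 h lay apart from the rest by time, while those in IL-3 and at 2 h lay close together. Array medians ran from -0.038 to 0.060. Of 7 granulocyte progenitor markers 5 lay at an estimated level of 8 or more, among them Mpo, Elane, Prtn3 and Ctsg, while the stem cell factor receptor Kit lay under 4. No marker of T cells, B cells, erythroid cells or fibroblasts reached a level of 8. Of 5 mast cell, basophil and eosinophil markers 4 did, and the same number rose by 24 h in G-CSF. So did 3 of 4 macrophage markers and 4 of the 7 granulocyte progenitor markers, where 13.8% of all genes tested rose. Of 3 megakaryocyte markers 2 reached a level of 8 (Itga2b and Pf4), and Itga2b rose by 0.83 at 24 h (adjusted p = 0.0263). Their part in the results was not tested. For Asxl1 itself the ASXL1-MT arrays minus the mock arrays averaged -0.34, -0.04 and 0.68 over its 3 probe sets, of which the last is dim. Whether those probe sets detect the introduced cDNA is not given in the sources used here.

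After 2 h in G-CSF the largest member difference was in Myc, the network's main activator. Myc measured 0.85 in IL-3, -1.07 at 2 h, -0.32 at 6 h and 0.54 at 24 h in the ASXL1-MT culture, against 0.69, -1.25, -0.64 and 0.32 at the same times in the mock culture. Both arrays at 2 h lay below every other array, and both arrays in IL-3 lay above every other array. At 2 h the difference from IL-3 was -1.93 ± 0.09, larger in size than that of 97.0% of the genes tested, at an adjusted p of 0.0764. No gene at all passed the limma test at 2 h (0%, with 1053 genes at an unadjusted p under 0.05, and 0 to 30 genes past it over the alternatives that keep all arrays), and thus none of the 9 members did. With only the genes above the 70th percentile of estimated level in the test, or with a prior variance that follows the level, Myc did pass at 2 h (adjusted p = 0.0017 and 0.0029). The next in size was Mxd4, a MAX-binding repressor, at 1.38 ± 0.24 (adjusted p = 0.363). The slightly brighter Mxd4 probe set 1434378_a_at lay at -0.02 ± 0.14 at 2 h.

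**Figure D1:**
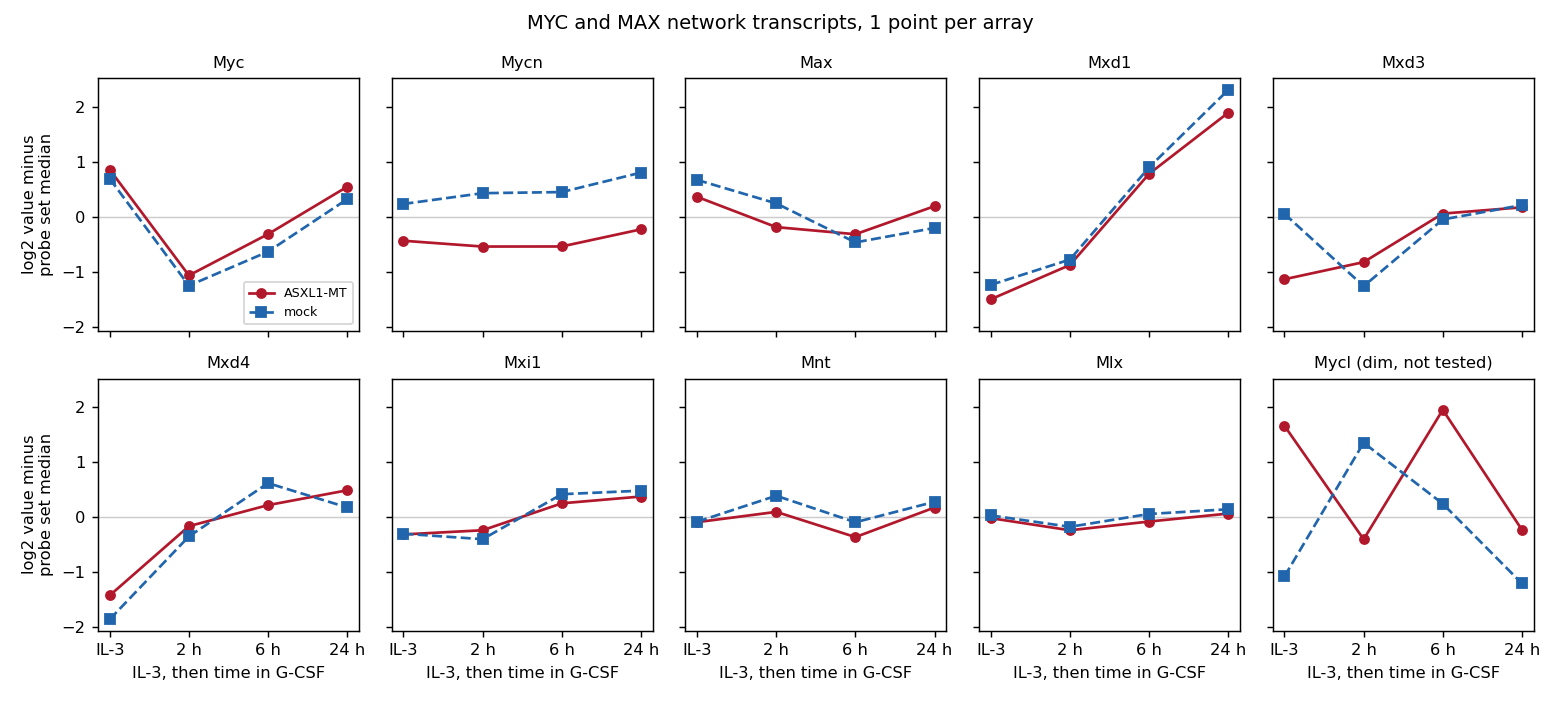
Centred log2 value of the probe set that stands for each member (vertical axis) by time, from IL-3 through 2, 6 and 24 h of G-CSF (horizontal axis), 1 point per array, with ASXL1-MT in red and mock in blue. Myc is lowest at 2 h in both cultures, Mxd1 is highest at 24 h in both, and Mycn is lower in ASXL1-MT at all 4 times.

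At 6 h, Mxd1, Mxd4 and Mxi1 were up and Myc was down. Of the 9 tested members these 4 passed, against 15.3% of all genes tested. Myc fell by 1.25 on the log2 scale against IL-3 (SE 0.09, adjusted p = 0.0141). Against 2 h, however, Myc was higher at 6 h by 0.68 ± 0.09 (adjusted p = 0.0251), so the fall was smaller at 6 h than the difference at 2 h. From the 2 h to the 6 h arrays 3 of 9 members passed, all upward (Myc, Mxd1 and Mxi1), where 13.9% of all genes tested passed in either direction. By 24 h Myc lay at -0.34 ± 0.09 against IL-3 and did not pass (adjusted p = 0.0579), and it was higher than at 6 h by 0.91 ± 0.09 (adjusted p = 0.0357). That last comparison had 2 members past the test, Myc and Mxd1, both upward, against 4.88% of genes. Both calls were lost with all arrays kept under 4 alternatives: probe set means, no filter on dim genes, quantile normalization again and every probe set on its own, where the adjusted p was 0.0552, 0.100, 0.0783 and 0.0623 for Myc and 0.183, 0.0908, 0.0840 and 0.0603 for Mxd1. Without the filter the 3 calls at 6 h against 2 h were lost as well (adjusted p = 0.0725 for Myc, 0.0549 for Mxd1 and 0.0952 for Mxi1), that of Mxd1 was lost with probe set means (0.0502), and that of Mxi1 with each array centred (0.0573) and with every probe set on its own (0.0613). The comparisons with IL-3 share the IL-3 arrays.

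The call of Myc at 24 h turned on the settings. It passed when each array was centred on its median (-0.43, adjusted p = 0.0304) and when the arrays were quantile normalized again (-0.76, adjusted p = 0.0213). The stricter filter (adjusted p = 0.0133) and the prior that follows the level (adjusted p = 0.0215) also let it pass. In each of these settings the 24 h value remained nearer to IL-3 than the 6 h value. RNA per culture was measured, so fewer cells with a transcript and less of it per cell cannot be told apart.

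Among the repressors, Mxd1 had the largest change of the network. It measured -1.50 in IL-3, -0.88 at 2 h, 0.78 at 6 h and 1.89 at 24 h in the ASXL1-MT culture, against -1.24, -0.78, 0.90 and 2.30 in the mock culture. On this probe set, 1434830_at, values were higher at each later time in both cultures, and no array of one time overlapped with those of another. The change from IL-3 was 0.54 ± 0.12 at 2 h (adjusted p = 0.501), 2.21 ± 0.12 at 6 h (adjusted p = 0.0141) and 3.47 ± 0.12 at 24 h (adjusted p = 0.0062). At 24 h it was larger in size than the change of 99.3% of the genes tested. The step from 2 h to 6 h was 1.67 ± 0.12 (adjusted p = 0.0193) and that from 6 h to 24 h was 1.26 ± 0.12 (adjusted p = 0.0357). The other 2 probe sets of Mxd1 also passed at 24 h when every probe set was tested on its own, at 3.37 ± 0.70 (1422002_at) and 3.07 ± 0.35 (1455104_at). In that limma fit 1455104_at passed at 6 h (2.06 ± 0.35), and 1422002_at did not (2.52 ± 0.70, adjusted p = 0.100). At 2 h both lay below IL-3 in the ASXL1-MT culture, at -0.59 (1422002_at) and -0.87 (1455104_at). In the mock culture they lay above it, at 2.14 and 0.39.

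Mxd4 was up at 6 and 24 h. The probe set that stands for it, 1422574_at, measured -1.43 in IL-3, -0.17 at 2 h, 0.21 at 6 h and 0.48 at 24 h in the ASXL1-MT culture, against -1.86, -0.36, 0.61 and 0.17 in the mock culture. Both IL-3 arrays were below all 6 G-CSF arrays. Its change from IL-3 was 2.06 ± 0.24 at 6 h (adjusted p = 0.0193) and 1.97 ± 0.24 at 24 h (adjusted p = 0.0133). A pair of its other probe sets differed in timing: 1434378_a_at lay at -0.02 ± 0.14 at 2 h, 2.05 ± 0.14 at 6 h and 1.28 ± 0.14 at 24 h, and 1434379_at at 0.47 ± 0.21, 2.26 ± 0.21 and 1.67 ± 0.21. Both passed at 6 and 24 h, and the dimmer 1422575_at passed at neither. The rise at 6 h was thus seen with 3 of 4 probe sets, and the 2 h difference of over 1 with the first alone.

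Mxi1, an MXD protein first described as a MAX interactor, changed less. It measured -0.32 in IL-3, -0.24 at 2 h, 0.24 at 6 h and 0.37 at 24 h in the ASXL1-MT culture, against -0.31, -0.41, 0.41 and 0.47 in the mock culture. The 4 arrays at 6 and 24 h all lay above the 4 arrays in IL-3 and at 2 h. It rose by 0.64 ± 0.11 at 6 h (adjusted p = 0.0390) and by 0.74 ± 0.11 at 24 h (adjusted p = 0.0212), with no difference past the test at 2 h (-0.01 ± 0.11). Without the filter on dim genes neither call held (adjusted p = 0.0894 at 6 h and 0.0515 at 24 h), and with each array centred the call at 6 h was lost (adjusted p = 0.0591). Its second probe set, 1425732_a_at, rose at both times in the fit of every probe set, by 0.75 ± 0.13 and 0.89 ± 0.13. In that fit 1450376_at, which stands for Mxi1, passed at 24 h but not at 6 h (adjusted p = 0.0551).

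Mxd3, the MXD member known from dividing cells, did not pass with the probe set that stands for it, 1422970_at. That probe set measured -1.14, -0.83, 0.06 and 0.17 in the ASXL1-MT culture and 0.05, -1.26, -0.05 and 0.21 in the mock culture, in IL-3 and at 2, 6 and 24 h. The cultures overlapped and were farthest apart in IL-3. Its change at 24 h was 0.73 ± 0.43 (adjusted p = 0.300). In the fit of every probe set 1438847_at rose by 0.88 ± 0.16 at 6 h (adjusted p = 0.0372) and by 0.82 ± 0.16 at 24 h (adjusted p = 0.0260). The third, 1448878_at, lay at 1.36 ± 0.54 at 24 h (adjusted p = 0.157). All 3 probe sets are dim, at estimated levels of 5.67 to 5.90.

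**Figure D2:**
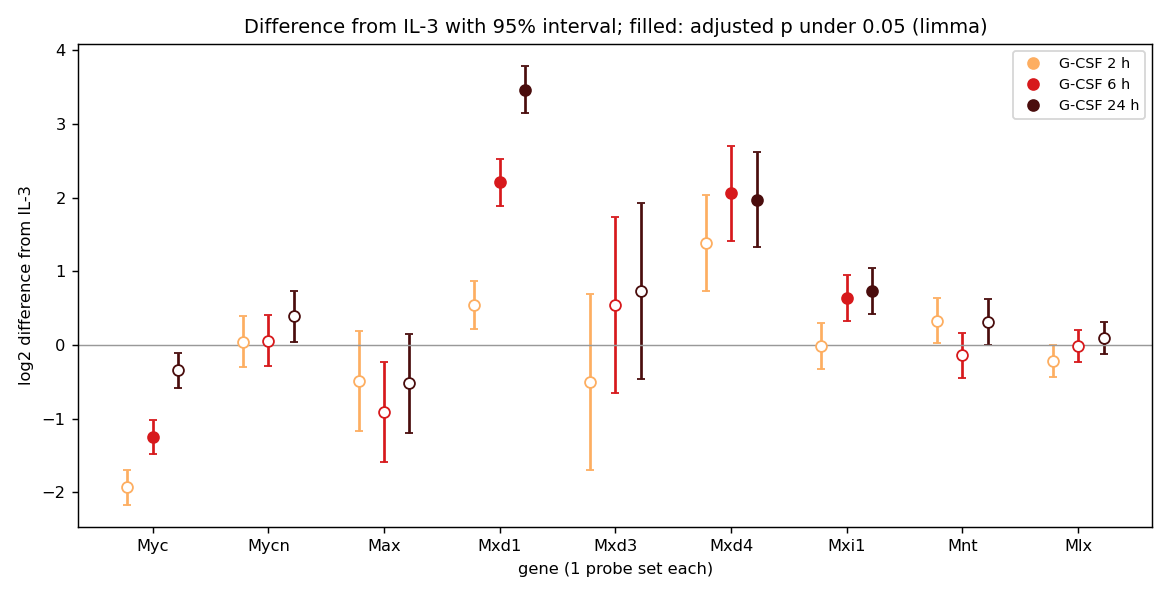
Log2 difference from IL-3 (vertical axis) at 2, 6 and 24 h in G-CSF for the 9 tested members (horizontal axis), with 95% intervals from limma; filled points passed at an adjusted p under 0.05. Mxd1 reaches 3.47 at 24 h, Mxd4 stays near 2 from 6 h on, and Myc moves from -1.93 at 2 h toward 0 at 24 h.

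At 24 h against IL-3, 3 of the 9 tested members passed, Mxd1, Mxd4 and Mxi1, all upward. Over all genes tested 24.8% passed in either direction, so the share of members that changed was close to that of the genes at large. The 6 other members were Myc, Mycn (0.39 ± 0.13, adjusted p = 0.100), Max (-0.52 ± 0.25, adjusted p = 0.211), Mxd3, Mnt (0.31 ± 0.11, adjusted p = 0.122) and Mlx (0.10 ± 0.08, adjusted p = 0.435). With the stricter filter Mycn (adjusted p = 0.0278) and Mnt (adjusted p = 0.0390) did pass in limma. Mycn also passed with the prior that follows the level (adjusted p = 0.0414). The median change over all genes tested was 0.11 at 6 h and 0.10 at 24 h. The calls rest on the full set of arrays. When any 1 array was left out no gene of the table passed at 6 h. At 24 h none passed when an array of IL-3 or of 24 h, from either culture, was left out. The values themselves ran from 3.34 to 3.60 for Mxd1 at 24 h, from 1.77 to 2.17 for Mxd4, from 0.69 to 0.79 for Mxi1, and from -1.31 to -1.19 for Myc at 6 h.

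Max, the shared partner, measured 0.36 in IL-3, -0.19 at 2 h, -0.32 at 6 h and 0.19 at 24 h in the ASXL1-MT culture, against 0.67, 0.24, -0.47 and -0.21 in the mock culture. The IL-3 arrays were the highest of each culture, and the cultures crossed between 2 and 6 h. Its difference at 6 h was -0.91 ± 0.25 and did not pass (adjusted p = 0.0859), though it did with the stricter filter (adjusted p = 0.0176) and with the prior that follows the level (adjusted p = 0.0268). Mnt, a MAX partner found in most cell types, measured -0.10, 0.09, -0.37 and 0.17 in ASXL1-MT cells and -0.09, 0.38, -0.10 and 0.27 in mock cells. It was lowest at 6 h in ASXL1-MT cells, and its 6 h and IL-3 values were alike in mock cells. Against 2 h its difference at 6 h was -0.47 ± 0.11 (adjusted p = 0.0683). From 6 h to 24 h it was 0.45 ± 0.11 (adjusted p = 0.0983). In limma both passed with the stricter filter (adjusted p = 0.0134 and 0.0198) and with the prior that follows the level (0.0201 and 0.0304). The second Mnt probe set, 1418193_at, is dim (estimated level 5.00) and passed in no comparison with IL-3. Mlx had the smallest spread of the probe sets that stand for members, with values from -0.25 to 0.14, and passed in no comparison. Its second probe set, 1425930_a_at, ran from -0.34 to 0.25.

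**Figure D3:**
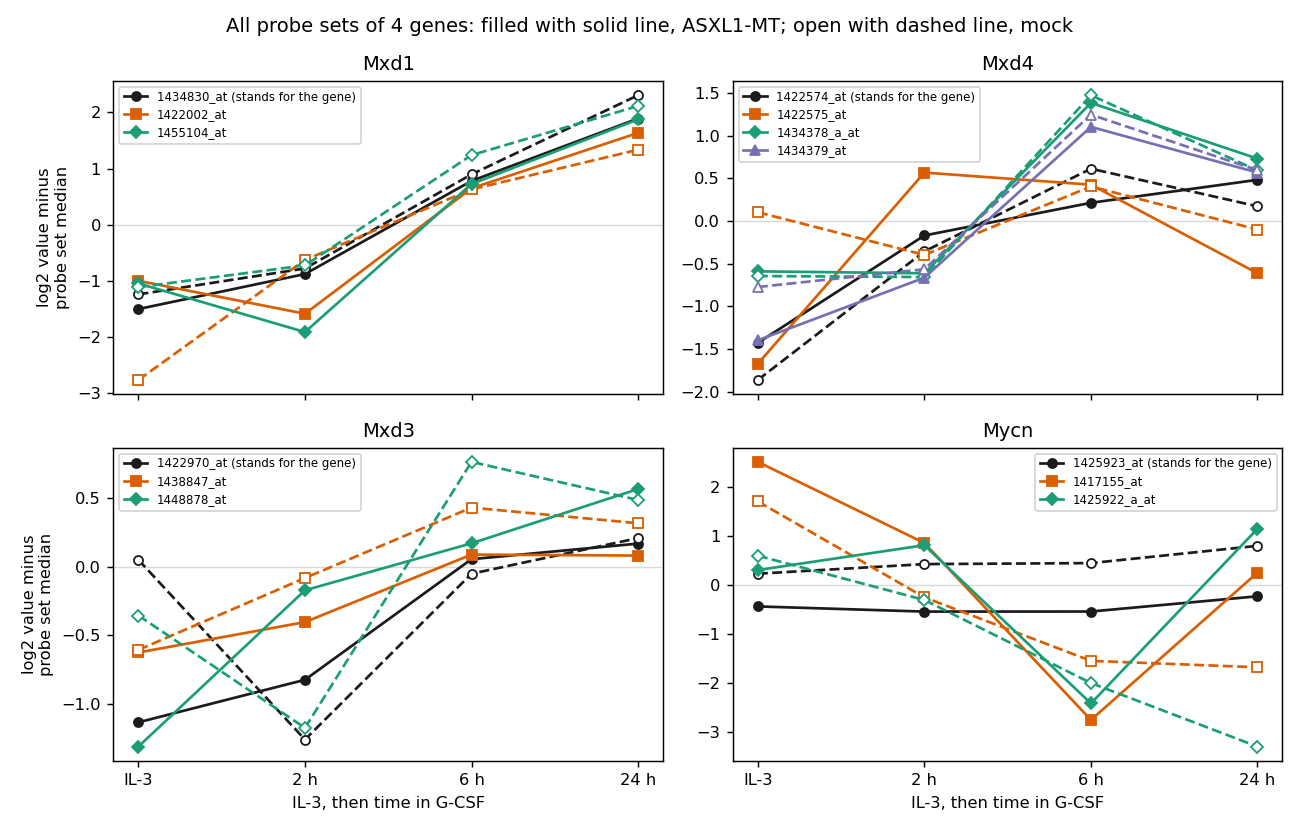
Centred log2 values (vertical axis) of every probe set of Mxd1, Mxd4, Mxd3 and Mycn by time, from IL-3 through 2, 6 and 24 h of G-CSF (horizontal axis); filled symbols and solid lines are ASXL1-MT, open symbols and dashed lines mock. The probe sets of Mxd1 all end high at 24 h, those of Mxd4 differ at 2 h, and the bright probe set of Mycn runs unlike its 2 dim ones.

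Mycn, the paralogue of Myc known from the nervous system and from early blood progenitors, had probe sets that disagreed. The probe set 1425923_at, at an estimated level of 10.9, measured -0.44, -0.54, -0.54 and -0.23 in the ASXL1-MT culture, against 0.23, 0.43, 0.45 and 0.80 in the mock culture, in IL-3 and at 2, 6 and 24 h. All 4 ASXL1-MT arrays lay below all 4 mock arrays. The 2 dim probe sets, at estimated levels of 4.71 and 5.14, had no such gap. They varied over time instead: 1417155_at measured 2.51, 0.86, -2.76 and 0.25 in ASXL1-MT cells against 1.71, -0.25, -1.55 and -1.68 in mock cells, and 1425922_a_at measured 0.31, 0.81, -2.42 and 1.15 against 0.60, -0.31, -2.00 and -3.30. Neither passed in any comparison, the nearest being 1417155_at at 6 h (-4.26 ± 0.82, adjusted p = 0.0538).

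Mycl, the third MYC gene, was near the bottom of the measured range on all its probe sets. The brightest, 1422087_at, measured 1.65, -0.41, 1.94 and -0.24 in ASXL1-MT cells and -1.08, 1.35, 0.24 and -1.21 in mock cells, with no order shared by the cultures. The other 2, 1422088_at and 1434777_at, lay at estimated levels of 3.48 and 3.34. Dim probe sets varied most in the table as a whole, with a median SD over the 8 arrays of 1.36 at an estimated level under 4, 0.72 at 4 to 8 and 0.25 at 8 or more. No change of Mycl is given here.

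The comparison of ASXL1-MT with mock asks whether the network differed between the 2 cultures over the 4 time points. With 1 transduced culture per vector, an effect of the mutant cannot be told apart from any other difference between the cultures. No member passed the limma test, and no gene of the table did (0%, with 844 genes at an unadjusted p under 0.05). This count was 0 under every alternative run. The largest member difference was in Mycn, at -0.91 ± 0.09 with a 95% interval of -1.16 to -0.67 and an adjusted p of 0.640, lower in ASXL1-MT at 4 of 4 times. It was the only 1 of the 9 tested members with no overlap between the 4 arrays of each vector, as were 1.25% of all genes tested. Its other 2 probe sets lay the other way, at 0.66 ± 0.58 and 1.21 ± 0.98, and did not pass.

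The remaining members differed less between the cultures. Myc was higher in ASXL1-MT at 4 of 4 times, by 0.16 in IL-3 and by 0.19, 0.32 and 0.23 at 2, 6 and 24 h, for a mean difference of 0.22 ± 0.06 (adjusted p = 0.735). Mxd1 was lower at 4 of 4 times, by a mean of -0.22 ± 0.08 (adjusted p = 0.779), as were Mnt (-0.17 ± 0.08) and Mlx (-0.08 ± 0.06). Those values are of the probe sets that stand for the genes. The other probe sets of Mxd1, Mnt and Mlx did not keep 1 sign over the times. For Mxd1, 1422002_at averaged 0.28 ± 0.49 and 1455104_at -0.47 ± 0.25. For Mnt, 1418193_at averaged -0.77 ± 0.51, and for Mlx 1425930_a_at averaged -0.005 ± 0.12. The share of all genes tested that kept 1 sign at 4 of 4 times was not counted. A shared sign over the times is therefore not read as a result about the members. The 95% intervals of Mycn and Myc lay to one side of 0, and those of the 7 other tested members spanned it.

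At single times, with 1 array on each side and no test, a difference of at least 1 in the probe set that stands for a member was found for Mxd3 in IL-3 (-1.19) and Mycn at 24 h (-1.03). The dim probe sets of Mycn lay the other way at 24 h, at 1.93 (1417155_at) and 4.45 (1425922_a_at). Among all genes tested such differences made up 13.4% in IL-3 and 13.7%, 13.7% and 13.5% at 2, 6 and 24 h. When the difference between ASXL1-MT and mock at 24 h was set against the other times, no member passed, nor did any gene (0%). In limma 751 genes lay at an unadjusted p under 0.05, and 0 to 1 gene passed over the alternatives that keep all arrays. The largest member value there was in Max, at 0.59 ± 0.32 (adjusted p = 0.995). For Myc it was 0.00 ± 0.16, with a 95% interval of -0.49 to 0.50, and for Mxd1 -0.26 ± 0.16, with an interval of -0.76 to 0.25.

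**Figure D4:**
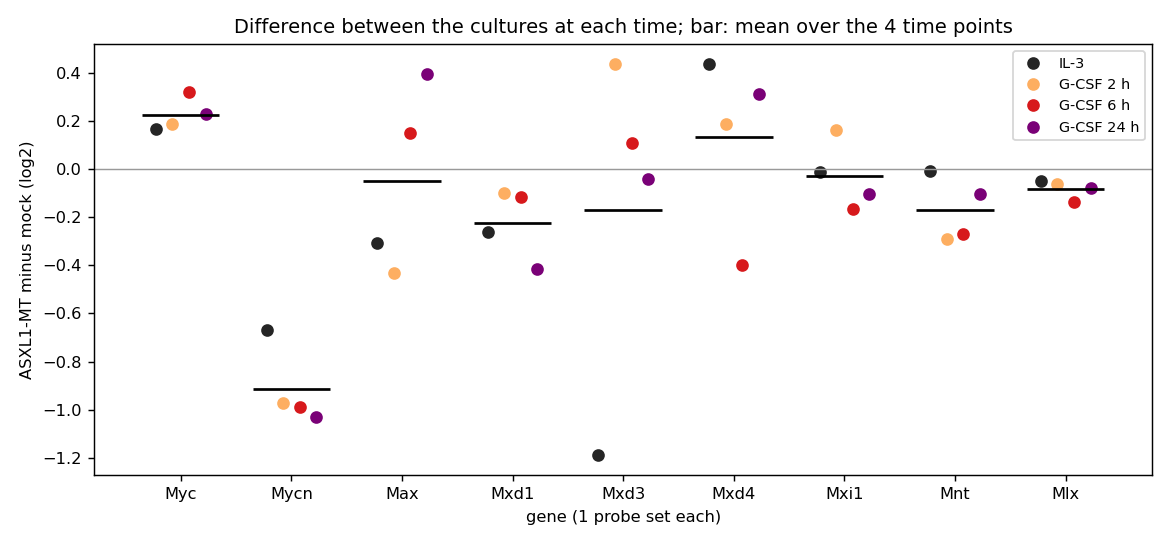
ASXL1-MT minus mock in log2 units (vertical axis) for the 9 tested members (horizontal axis), 1 point for each time, with a bar at the mean over the 4 times. Mycn lies from -1.03 to -0.67, Myc lies above 0 at every time, and Mxd3 has 1 point at -1.19, in IL-3.

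Many genes known to be activated by MYC fell at 6 and 24 h. Of 34 such genes, all tested, 19 fell at 6 h and none rose, with a median of -0.87, where 6.63% of all genes tested fell. At 24 h 27 fell and none rose, with a median of -0.99, where 11.1% of all genes fell. At 2 h, when Myc was lowest, their median difference from IL-3 was -0.03, and none passed, as no gene of the table did (0%). Over all genes tested the medians were -0.005 at 2 h, 0.11 at 6 h and 0.10 at 24 h. Spermidine synthase (Srm) had the largest fall at both times, at -2.67 ± 0.10 at 6 h and -1.87 ± 0.10 at 24 h. At 6 h it was followed by the nucleolar proteins Gnl3 (-1.91), Nolc1 (-1.81), Rrs1 (-1.76) and Wdr43 (-1.64) and the transferrin receptor Tfrc (-1.53). At 24 h the next were Nolc1 (-1.68), the mitochondrial chaperonin Hspe1 (-1.52), the nucleolar proteins Mybbp1a (-1.44) and Bop1 (-1.38), and the nucleoside diphosphate kinase Nme1 (-1.34).

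Between 6 and 24 h 3 of the 34 rose and 4 fell, with a median of -0.08, while Myc itself rose. Srm (0.81 ± 0.10) and the ribosome assembly factor Rrs1 (0.92 ± 0.12) were among those that rose, while Nme1 (-1.10 ± 0.09), the pyrimidine synthesis enzyme Cad (-0.95 ± 0.11), the chaperonin Hspd1 (-0.81 ± 0.09) and the nucleolar methyltransferase Fbl (-0.71 ± 0.08) fell further. At 24 h 7 of the 34 did not pass against IL-3: Eif4e, Ldha, Npm1, Odc1, Paics, Riox2 and Tert. The list median kept its sign in 16 alternative settings, from -0.97 to -0.69 at 6 h and from -1.07 to -0.91 at 24 h. As for single members, no gene of the list passed at 6 h without any 1 array.

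Genes known to be repressed by MYC went the other way where they passed. Of 9 listed 7 were tested, and 3 of these rose at 6 h and at 24 h and none fell, where 8.67% and 13.8% of all genes tested rose. They were the cyclin-dependent kinase inhibitor Cdkn1b (1.12 ± 0.17 and 1.57 ± 0.17), the stress gene Ndrg1 (0.84 ± 0.09 and 0.97 ± 0.09) and the growth arrest gene Gadd45a (0.74 ± 0.13 and 0.98 ± 0.13). The inhibitor Cdkn1a lay at -0.12 at 24 h and did not pass.

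**Figure D5:**
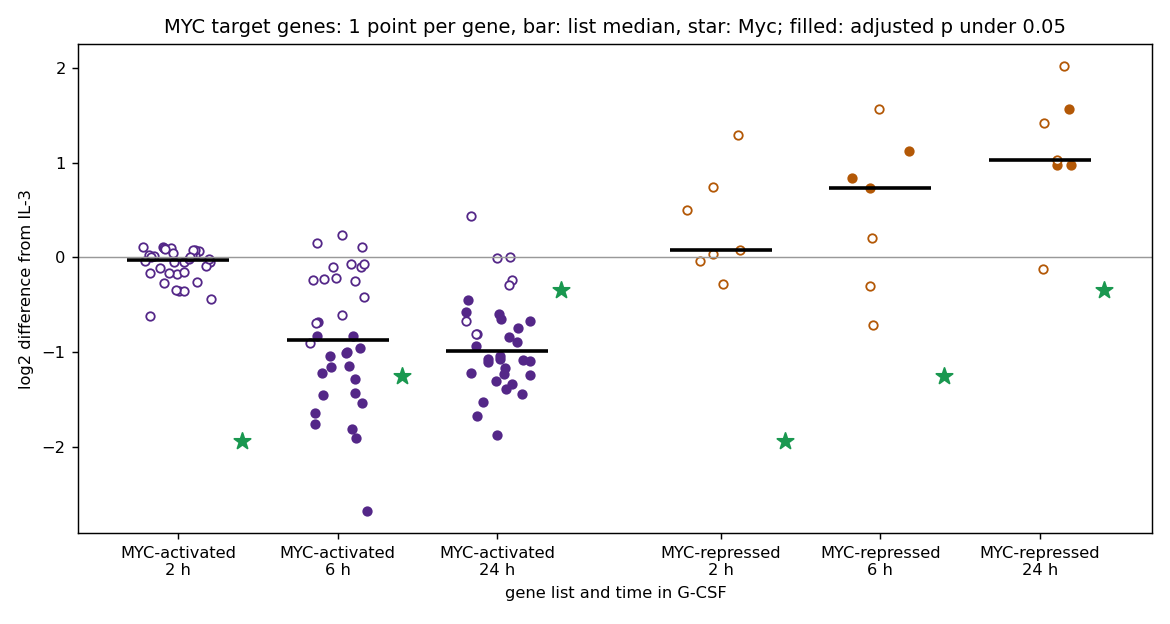
Log2 difference from IL-3 (vertical axis) of each MYC-activated gene (purple) and MYC-repressed gene (orange) at 2, 6 and 24 h in G-CSF (horizontal axis); bars are list medians, green stars Myc, and filled points passed at an adjusted p under 0.05. The MYC-activated genes lie around 0 at 2 h, where Myc is at -1.93, and have medians of -0.87 at 6 h and -0.99 at 24 h.

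Genes for proteins that work with the network are given beside the 15.3% and 24.8% of all genes that passed in either direction at 6 and 24 h. Of 10 MYC cofactors 2 fell at 6 h and 4 at 24 h, and none rose: the helicases Ruvbl1 (-1.29 ± 0.09 at 24 h) and Ruvbl2 (-0.79 ± 0.09), the acetyltransferase Kat2a (-0.87 ± 0.13) and the remodeller subunit Smarcb1 (-0.49 ± 0.09). Of 5 corepressor genes tested, Sin3a rose at 24 h (0.51 ± 0.12), and Sap30 (-0.56 ± 0.09) and Sin3b (-0.46 ± 0.09) fell. Of 8 tested genes for MYC protein turnover only the ubiquitin ligase subunit Skp2 passed at 24 h, at -0.65 ± 0.11. Mga and Mlxip, which also pair with MAX and with MLX, passed in none of the comparisons with IL-3, and Mlxip lay at 0.48 ± 0.13 at 24 h (adjusted p = 0.0632). Beside these, 8 of 9 neutrophil maturation genes tested rose at 24 h, including the granule proteins Ngp (4.95 ± 0.26) and Lcn2 (4.33 ± 0.16). None of these lists held a gene past the test between ASXL1-MT and mock.

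The promoters are shown because MYC, MXD and MNT dimers with MAX share a binding sequence, which allows the question of which members carry it themselves. The letters CACGTG read the same on both strands. From 250 bases before to 50 after the start site, RefSeq promoters on GRCm38.p6 held them in 7.15% of 32851 promoters and in at least 1 promoter of 8.09% of 27025 genes. Myc had no entry among these promoters, so its own promoter was not searched for either motif. Of the 9 members with an entry 4 held CACGTG: Mxd4, Mnt, Mlx and Max. Each is printed 5′ to 3′ on the gene's strand with CACGTG in capitals. The windows lie at chr5:34187912-34187941 (minus strand), chr11:74830789-74830818 (plus strand), chr11:101087238-101087267 (plus strand) and chr12:76962234-76962263 (minus strand), and the first base of CACGTG is at -219, -123, -40 and -3 from the start site.
Mxd4: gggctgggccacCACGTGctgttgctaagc
Mnt: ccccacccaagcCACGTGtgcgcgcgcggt
Mlx: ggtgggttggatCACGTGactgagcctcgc
Max: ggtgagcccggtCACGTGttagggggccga

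Of these 4 only Mxd4 changed past the test in G-CSF. Mxd1 and Mxi1, which also rose, had no CACGTG in these windows. The motif TTCNNNGAA, bound by STAT factors that act downstream of cytokine receptors, also reads the same on both strands. It was in 8.30% of all promoters, for 9.55% of genes, and in 0 of the 9 members with an entry, so none held both motifs. The 250 bases before the start site of Mxd1, the member that rose most, lie at chr6:86669160-86669409 on the minus strand and hold neither motif.
Mxd1: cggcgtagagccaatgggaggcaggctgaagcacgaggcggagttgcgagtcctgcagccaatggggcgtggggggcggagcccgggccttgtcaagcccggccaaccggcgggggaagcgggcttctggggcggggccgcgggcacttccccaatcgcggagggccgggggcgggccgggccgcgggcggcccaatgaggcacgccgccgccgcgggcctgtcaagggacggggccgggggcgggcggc

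Among the MYC-activated genes 10 of 27 with an entry held CACGTG, against the 8.09% of all genes. They were listed as known targets of MYC, so this share is not independent of that choice. Of the 10 genes, the 5 with the largest fall at 24 h are printed to show the sequence next to the change, with the first window of each. They fell by 1.44 (Mybbp1a), 1.34 (Nme1), 1.22 (Hspd1), 1.09 (Apex1, a DNA repair endonuclease) and 1.07 (Wdr43) on the log2 scale. The windows lie at chr11:72441355-72441376 (plus), chr11:93968037-93968066 (minus), chr1:55088306-55088335 (minus), chr14:50924913-50924942 (plus) and chr17:71616220-71616249 (plus). The first base of CACGTG is at 41, -29, -80, -24 and 18 from the start site, counted from 1 at that site.
Mybbp1a: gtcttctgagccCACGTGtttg
Nme1: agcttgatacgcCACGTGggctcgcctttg
Hspd1: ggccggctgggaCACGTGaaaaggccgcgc
Apex1: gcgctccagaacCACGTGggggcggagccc
Wdr43: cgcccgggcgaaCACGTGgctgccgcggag

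A match is a run of letters and not a measured binding site. Ldha and Paics also held CACGTG and lay at -0.0019 and 0.0092 at 24 h, so genes with these letters both fell and did not.

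Across the 8 arrays Pearson's r was 0.947 between Mxd1 and Mxi1, 0.791 between Mxd1 and Mxd4 and 0.732 between Mxd1 and Mxd3, against 0.104 between Mxd1 and Myc and -0.828 between Max and Mxd4. These values describe 8 points that share 4 times and 2 cultures, and members that rose over the same arrays are alike in part by that choice. Among 7138 tested genes whose values span at least 1, the gene most like Myc was Dusp6, a MAP kinase phosphatase (r = 0.973), followed by Adad1, Id1, Fam78a and Lmtk3. The most opposite to Myc was Arid5b (r = -0.992), followed by Apc2, Lgalsl, Sema6d and Gdf9. For Mxd1 the most alike were Dio2 (r = 0.997), Cpeb4, Bcl3, Oip5os1 and Ffar2, and the most opposite Trgv4 (r = -0.995), Prmt6, Dhps, Sae1 and Fkbp4. The genes named for Myc and Mxd1 are the extremes among 7138 genes over the same 8 arrays. Their r is thus large in size in part by that choice.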

How the data were processed

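RNA from 8 cultures or time points was hybridized to 1 Affymetrix array each. The deposited table was read as log2 values centred on each probe set's median, since every such median lies within 5e-07 of 0. MAS 5.0 read the intensities, per the labels' design text, and RMA stands in the submitters' processing notes. Centring, log base and scaling: not given in the sources used here. With a natural log, differences in log2 units would be 1.44 times as large. Levels before centring were estimated from the rounding of the 32-bit numbers, coarsely. Of the probe sets 34945 carry 1 symbol, 932 several and 9160 none. The test was limma 3.58.1 (R 4.3.3), additive on time and vector (3 residual degrees of freedom), two-sided, Benjamini-Hochberg over 13310 genes whose second-highest array reached the table's median level. Fits were tested on simulated data. The design assumed no centring; the tests were kept. All probe sets of members are given; of lists, up to 6 genes past the test by size. Members, lists and tests were chosen with earlier results of these data known. Alternatives were other probe set, filter, scaling, prior and array choices.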

Additional observations from a re-analysis of the deposited data

How the results depend on the processing

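Of 976 member differences recomputed, 848 stayed on their side of the threshold, 16 passed only under the alternative and 112 passed only as reported. No change that passed reversed, and 53 differences that passed in neither setting had another sign. Members past the test at 2 h numbered 1 (Myc) with the 70th percentile filter or the trended prior, against 0 as reported. At 24 h against IL-3 they numbered 5 with either of these, against 3. With the 4 arrays of the 2 times alone they numbered 0 in the comparisons of 6 h and 24 h with IL-3, 6 h with 2 h and 24 h with 6 h, and without the filter on dim genes 0 at 6 h against 2 h. At 24 h against 6 h they numbered 0 with probe set means, no filter, quantile normalization or every probe set tested on its own. Without 1 array at a time the range was 0 to 3 at 24 h against IL-3 and 0 to 0 in the other time comparisons; such fits have fewer arrays and residual degrees of freedom. Genes past the test, with all 8 arrays, ranged over the alternatives from 0 to 30 at 2 h, from 589 to 3401 at 6 h, from 1805 to 5539 at 24 h, from 0 to 3270 at 6 h against 2 h and from 0 to 2466 at 24 h against 6 h, against 0, 2036, 3305, 1855 and 649 as reported. The probe-set-by-probe-set values of members were chosen after seeing the data. The reported fit sets arrays of 1 culture against each other for time, and arrays of 1 time for the vector. Without the vector term the members past the test numbered 0, 4, 3, 3 and 2 in the same 5 time comparisons, as reported. Dim probe sets, such as those of Mycl and Mxd3, limit what could be seen.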
